A study of Homo sapiens with 36 samples.

Results

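Immunoprecipitation (IP) of a tagged protein brings down its partners together with whatever sticks to the beads without the tag. Here the miRNAs recovered in the absence of tagged AGO2 were compared, one by one, with those recovered with it. The libraries were chosen by their labels: the 3 IP libraries of the Flag/HA-empty vector and the 3 IP libraries of WT-AGO2, which is 6 of 36 libraries. Both groups were HEK293T cells, an established human embryonic kidney line, co-transfected with pEGFP-C1 and with either Flag/HA-tagged AGO2 or the vector that carries the tag alone. RNA on the anti-HA beads was purified and made into TruSeq small RNA libraries. The lysates (input) of the same 2 groups were used for comparison. HEK293T cells have untagged AGO proteins of their own in both groups, and the amount of tagged AGO2 on the beads cannot be read from small RNA counts. The labels do not say whether replicates were separate cultures, so p-values measure the spread between these libraries, which may be technical.

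miRNAs are cut from hairpin precursors as short duplexes, of which AGO proteins retain the guide strand and discard the passenger strand. The seed, at the 5′ end of the guide, pairs with target mRNAs, and AGO2 then recruits GW182 proteins that silence the target. Most cellular miRNA is bound to an AGO protein, so that a lysate and an AGO2 IP largely hold the same molecules. miRNAs are named here after MirGeneDB, where a P number marks the paralogue, 5p or 3p the arm of the hairpin and an asterisk the passenger strand. All 135 mature miRNAs of the table were considered.

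The sequences below are those of miRNAs on either side of the comparison that could be matched to RefSeq by name or by the number of genes sharing one mature sequence. Capitals mark the seed, bases 2 to 8. The first 3 were recovered with the empty vector and the last 4 were not. miR-191-5p, in the middle, was recovered in all 3 empty vector libraries.
miR-92a-3p (Mir-92-P1a and Mir-92-P1c): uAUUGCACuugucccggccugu
let-7a-5p (Let-7-P1d, Let-7-P2a1 and Let-7-P2a2): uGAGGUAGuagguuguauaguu
let-7f-5p (Let-7-P2a3 and Let-7-P2b1): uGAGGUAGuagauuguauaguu
miR-191-5p: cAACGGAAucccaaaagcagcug
miR-577: uAGAUAAAauauugguaccug
miR-769-5p: uGAGACCUcuggguucugagcu
miR-345-5p: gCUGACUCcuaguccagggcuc
miR-423-5p: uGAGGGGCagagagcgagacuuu

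In GRCh38.p14, miR-92a-3p lies at chr13:91351361-91351382 on the plus strand, in an exon of MIR17HG, and at chrX:134169544-134169565 on the minus strand, in an exon of AC002407.1. miR-191-5p is intronic to DALRD3 (chr3:49020672-49020694, minus strand). miR-577 is intronic to UGT8 (chr4:114656774-114656794, plus strand) and miR-769-5p to CCDC61 (chr19:46018961-46018982, plus strand). miR-345-5p overlaps no other annotated gene (chr14:100307876-100307897, plus strand). miR-423-5p lies in an exon of NSRP1 (chr17:30117095-30117117, plus strand). let-7a-5p comes from chr9:94175962-94175983 (plus strand, intron of AL158152.2), chr11:122146568-122146589 (minus strand, intron of MIR100HG) and chr22:46112752-46112773 (plus strand, exon of MIRLET7BHG). let-7f-5p comes from chr9:94176353-94176374 (plus strand, intron of AL158152.2) and chrX:53557246-53557267 (minus strand, intron of HUWE1). The 2 let-7 mature sequences share their seed, GAGGUAG, and no other seed among those shown is shared.

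The libraries differed in depth. RPM values relate reads to all reads of a library, and the values rose in steps that fit whole reads to within 0.01 of a read. The reads inferred in this way came to 18032, 48080 and 28015 in total for empty vector replicates 1 to 3, of which 184, 174 and 202 were on mature miRNAs. The WT-AGO2 libraries had 279899, 102967 and 273859 reads, with 30793, 6429 and 6105 on mature miRNAs. A single read was worth 55.5, 20.8 and 35.7 RPM in the empty vector libraries, and 3 reads per library corresponded to a mean of 112 RPM. Single reads were mostly not listed for miRNAs without a paralogue, so a value of 0 can hide 1 read. Intervals and limits are for counting error alone, as the reads carry no molecular identifiers. Near-identical paralogues were listed with nearly the same reads: Mir-92-P1a_3p and Mir-92-P1c_3p shared nearly all of theirs, and 29 miRNAs formed 14 such sets. Whether shared reads were listed in full under each paralogue or divided among them could not be told. Of 116 values of 1 read over all libraries, 115 were on miRNAs with a family member of the same arm. Shares are given as listed, and in places also with each set counted once. If shared reads were divided, counting a set once leaves out part of them. Within the empty vector group, the profiles of mature reads differed by about as much as counting error, with a chi-square per degree of freedom between 0.638 and 1.44 over the 3 pairs, on few reads. The WT-AGO2 pairs were at 4.0 to 9.95 on many more reads, and since the statistic grows with depth, the groups cannot be compared by it. The empty vector libraries were kept as 3 samples, since their values and totals differ.

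Mature miRNAs took a smaller part of the reads without tagged AGO2. Their share was 1.02% in empty vector replicate 1 (95% Wilson interval 0.884% to 1.18%), 0.362% in replicate 2 (0.312% to 0.420%) and 0.721% in replicate 3 (0.629% to 0.827%). These intervals take every listed read as a separate read. With near-identical sets counted once, the mature reads of the empty vector libraries were 128, 137 and 145, so these shares would be lower. The WT-AGO2 libraries stood at 11.0%, 6.24% and 2.23%, so the groups did not overlap, and the lowest WT-AGO2 library was 2.18 times the highest empty vector library. The difference of the means was -5.79 percentage points (p = 0.1 by a two-sided exact permutation test, which cannot go lower with 3 against 3). In the empty vector lysate the share was 0.292% ± 0.0194 (SD, n = 3), below each empty vector IP library.

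The number of mature miRNAs listed was 22, 21 and 27 in the empty vector IP and 128, 111 and 118 in the WT-AGO2 IP, again without overlap (exact permutation test, two-sided, p = 0.1). Depth goes with this number. When the WT-AGO2 libraries were reduced by calculation to 184 mature reads, 42.2, 42.4 and 43.8 miRNAs were expected with at least 1 read and 20.7, 21.4 and 22.8 with at least 2. The empty vector libraries held 20, 18 and 20 miRNAs with at least 2 reads. At equal mature reads, then, the numbers with 2 or more reads were close, and fewer single reads were listed, 2, 3 and 7 values in all.

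Of the 135 miRNAs, 34 were listed in at least 1 empty vector library (26 with near-identical sets counted once). Of these, 14 were in all 3 libraries, 8 in 2 and 12 in 1. The other 101 were listed in none. All 34 were also listed in all 3 WT-AGO2 libraries, and 0 miRNAs had a higher mean RPM in the empty vector IP. Conversely, 71 miRNAs were listed in all 3 WT-AGO2 libraries and in no empty vector library, and 4 were at 0 in all 6. The depth limited what absence could show, since 22 of the 101 had a WT-AGO2 mean above the 3-read level of 112 RPM. For 12 of them the recovery with tagged AGO2 was at least 2-fold higher, taking 3 reads per empty vector library as the limit. Without WT-AGO2 replicate 1 this held for 4, and 8 of the 101 were above the limit in all 3 WT-AGO2 libraries.

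**Figure D1:**
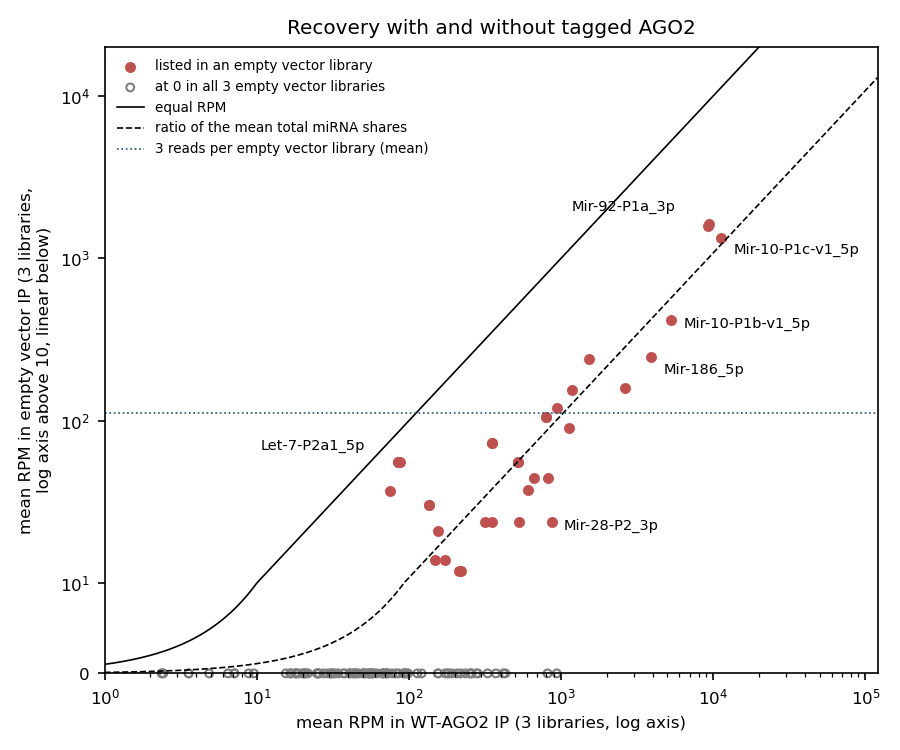
Mean RPM of each mature miRNA in the WT-AGO2 IP (horizontal, log axis) and in the empty vector IP (vertical, log axis above 10 RPM and linear below), 3 libraries each; filled points are the 34 miRNAs listed in an empty vector library and open points those at 0 in all 3; the 4 at 0 in all 6 libraries are not drawn. All points lie below the line of equal RPM, and those at 0 reach up to 937 RPM in the WT-AGO2 IP.

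Among the miRNAs recovered without tagged AGO2, Mir-92-P1a_3p, the mature miR-92a printed above, came first. It had 43, 40 and 47 reads in the empty vector libraries and 4908, 825 and 663 in the WT-AGO2 libraries. This was 2385, 832 and 1678 RPM against 17535, 8012 and 2421 RPM. Empty vector replicate 1 and WT-AGO2 replicate 3 nearly met, and for the paralogue Mir-92-P1c_3p they crossed, at 2385 and 2384 RPM. Mir-10-P1c-v1_5p, of the Mir-10 genes that lie in HOX clusters, followed with 34, 36 and 39 reads (1886, 749 and 1392 RPM) against 5130, 1192 and 1054 reads (18328, 11577 and 3849 RPM). Here the groups did not overlap. Its paralogue Mir-10-P1b-v1_5p had 13, 12 and 8 reads against 2260, 629 and 454. These 3 sequences held 70.3%, 64.2% and 64.8% of the mature reads of the empty vector libraries with near-identical sets counted once, compared with 49.7%, 49.4% and 41.9% in the WT-AGO2 libraries. They were picked as the leaders of the empty vector IP, so the choice itself favours a higher share there.

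The remaining miRNAs of all 3 empty vector libraries had 10 reads or fewer in each. Mir-186_5p had 7, 5 and 7 reads against 1392, 435 and 669, and its WT-AGO2 libraries were closer to each other in RPM than those of most miRNAs (4973, 4225 and 2443). Mir-378_3p, from an intron of PPARGC1B, had 5, 4 and 10 reads against 858, 114 and 107. With 357 RPM in empty vector replicate 3 and 391 RPM in WT-AGO2 replicate 3, it came close to overlap. Mir-92-P1d_3p had 4, 9 and 2 reads against 1373, 231 and 196. Mir-22-P1b_3p had 4, 3 and 5 against 607, 96 and 121, and Mir-191_5p had 2, 5 and 4 against 305, 113 and 175. Both were below every WT-AGO2 library. Mir-15-P2a_5p and Mir-15-P2b_5p, of a family that targets BCL2, were listed with the same reads, 3, 2 and 3 against 369, 73 and 97.

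The groups overlapped widely for the let-7a sequence. Let-7-P2a1_5p, of the family that represses LIN28 and RAS mRNAs, had 2, 1 and 1 reads in the empty vector libraries and 33, 13 and 3 in the WT-AGO2 libraries. This was 111, 20.8 and 35.7 RPM against 118, 126 and 11.0 RPM, so WT-AGO2 replicate 3 was below all 3 empty vector libraries. With 4 reads in the empty vector group, the pooled ratio of 0.570 had an exact 95% interval from 0.149 to 1.55. Let-7-P2a3_5p and Let-7-P2b1_5p, which share the let-7f sequence, had 2, 0 and 3 reads against 188, 32 and 22.

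**Figure D2:**
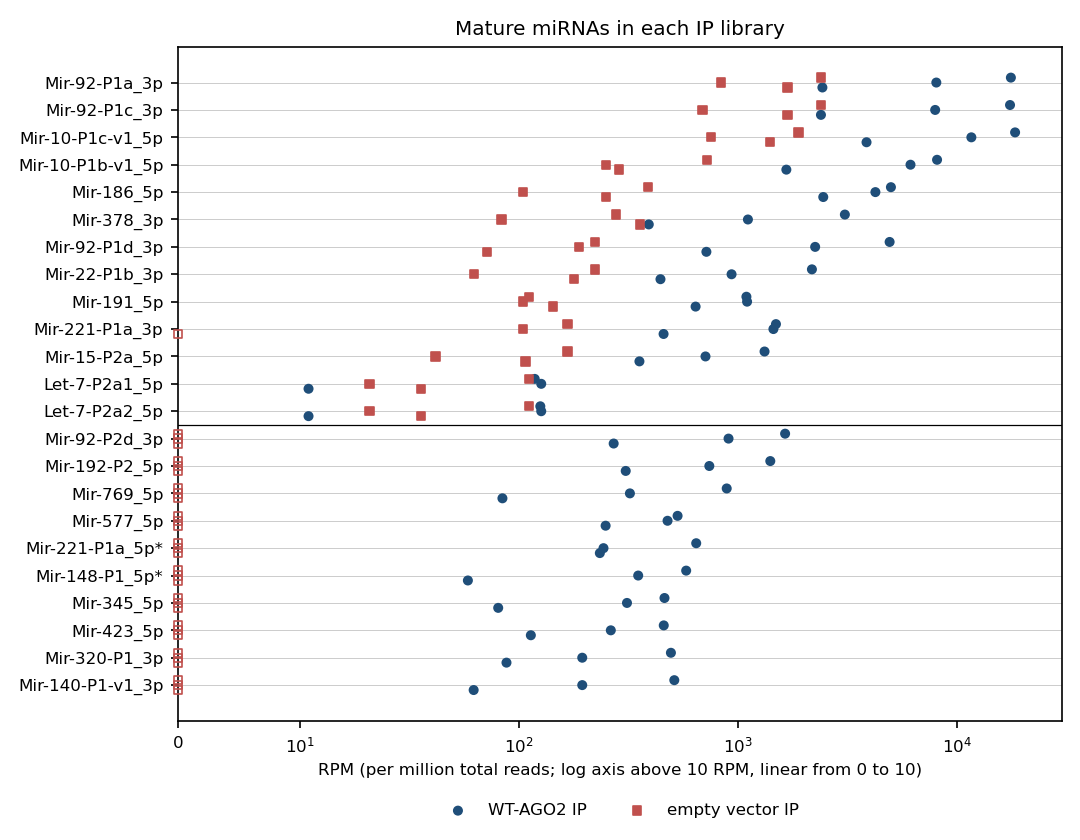
RPM in each of the 6 IP libraries (log axis above 10 RPM, linear from 0 to 10) for the miRNAs listed in all 3 empty vector libraries or leading in reads there (above the line) and for 10 at 0 in all 3 (below the line). Squares are empty vector libraries, circles WT-AGO2 libraries, and open symbols stand for 0; the let-7a paralogues overlap between the groups and most others do not.

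The 20 miRNAs listed in only 1 or 2 empty vector libraries had at most 5 reads in any of them. Mir-221-P1a_3p, which targets the cell cycle inhibitor CDKN1B, had 3, 5 and 0 reads against 416, 149 and 125. Mir-28-P2_3p had the lowest recovery of the 34, with 0, 0 and 2 reads against 446, 74 and 78, a pooled ratio of 0.0233 (exact 95% interval 0.0028 to 0.0847). The median pooled ratio of the 34 was 0.103, beside 0.0902 for all mature reads together (0.0811 with near-identical sets counted once). WT-AGO2 replicate 1 supplied 71.1% of the pooled WT-AGO2 reads. Without it, the median pooled ratio was 0.188 and the ratio of all mature reads 0.179 (0.156 with near-identical sets counted once).

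The most abundant WT-AGO2 miRNAs that were at 0 with the empty vector were Mir-92-P2d_3p and Mir-192-P2_5p. Mir-92-P2d_3p had 458, 93 and 74 reads in the WT-AGO2 libraries (1636, 903 and 270 RPM), which is at least 8.37-fold higher than 3 reads per empty vector library (5.24-fold without WT-AGO2 replicate 1). Mir-192-P2_5p, of a family induced by p53, had 392, 76 and 84 reads (1401, 738 and 307 RPM), at least 7.28-fold higher (4.67-fold without that replicate). In both, the lowest WT-AGO2 library was well above the limit. Mir-577_5p had 148, 49 and 68 reads and was at least 3.73-fold higher, or 3.23-fold without WT-AGO2 replicate 1. The passenger strand Mir-221-P1a_5p* went from 3.33-fold to 2.13-fold without it. For the others named here the bound was then under 2-fold. Mir-769_5p, with 248, 33 and 23 reads, was at least 3.84-fold higher, and 1.81-fold without it. The passenger strand Mir-148-P1_5p* went from 2.94-fold to 1.82-fold. Mir-345_5p, with 129, 32 and 22 reads, went from 2.54-fold to 1.75-fold, and Mir-423_5p, with 128, 27 and 31, from 2.48-fold to 1.68-fold. Mir-320-P1_3p went from 2.31-fold to 1.26-fold and Mir-140-P1-v1_3p from 2.28-fold to 1.14-fold. In WT-AGO2 replicate 3, Mir-769_5p (84.0 RPM), Mir-345_5p (80.3 RPM), Mir-320-P1_3p (87.6 RPM) and Mir-140-P1-v1_3p (62.1 RPM) were under the limit of 112 RPM. Mir-148-P1_5p* (58.4 RPM) was under it as well.

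limma on log2(RPM + 50) called 69 of 121 tested miRNAs lower in the empty vector IP, 57% of those tested, and 0 higher. A call needed an adjusted p under 0.05 and a log2 fold change beyond 1 in either direction. By ranks, all 3 empty vector libraries were below all 3 WT-AGO2 libraries for 95 of 121, or 78.5%. Of the 34 miRNAs recovered with the empty vector, 28 were called. The 6 that were not were the 3 let-7a paralogues, the Mir-101-P1-v1_3p and Mir-101-P2-v1_3p pair, and Mir-1307_5p, all with 4 reads or fewer in the empty vector group. The 41 called at 0 in the empty vector libraries could be tested only through the WT-AGO2 group, which fixed their direction. Of these, 19 had a WT-AGO2 mean at or below the 3-read level, so these calls rest on values that the empty vector libraries could not resolve. The size of a change from 0 is set by the pseudocount.

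The largest changes by limma in RPM among miRNAs with reads in the empty vector IP were those of Mir-186_5p, with a log2 fold change of -3.79 ± 0.86 (SE, adjusted p = 0.0022), Mir-28-P2_3p at -3.48 and Mir-92-P1d_3p and Mir-10-P1b-v1_5p, both at -3.37. Mir-10-P1c-v1_5p was at -2.85 ± 0.89 (SE, adjusted p = 0.0113). The leading miRNA of the empty vector IP changed less, with Mir-92-P1a_3p at -2.19 ± 0.92 (SE, adjusted p = 0.0345) and Mir-378_3p at -2.16 ± 0.87 (SE, adjusted p = 0.0294). For both, the call was lost when any library other than WT-AGO2 replicate 3 was left out. The call of Mir-10-P1c-v1_5p was lost without empty vector replicate 2 or 3. Let-7-P2a1_5p was at -0.30 ± 0.58 (SE, adjusted p = 0.616).

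Since the total share of miRNAs differed between the groups, the composition of the mature reads was compared next, as the share of each miRNA in the mature reads of its library. Mir-92-P1a_3p took 23.2% ± 0.197 (SD, n = 3) in the empty vector IP and 13.2% ± 2.56 (SD, n = 3) in the WT-AGO2 IP. With near-identical sets counted once, it took 33.6%, 29.2% and 32.4% against 19.8%, 15.4% and 12.8%, and every empty vector library was above every WT-AGO2 library. In the empty vector lysate this share was 9.46% ± 2.81 (SD, n = 3). If single reads are left unlisted at 184 mature reads or so, the WT-AGO2 composition gives 60.8 to 89.3 reads of Mir-92-P1a_3p over the 3 empty vector libraries by calculation, compared with 130 found.

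**Figure D3:**
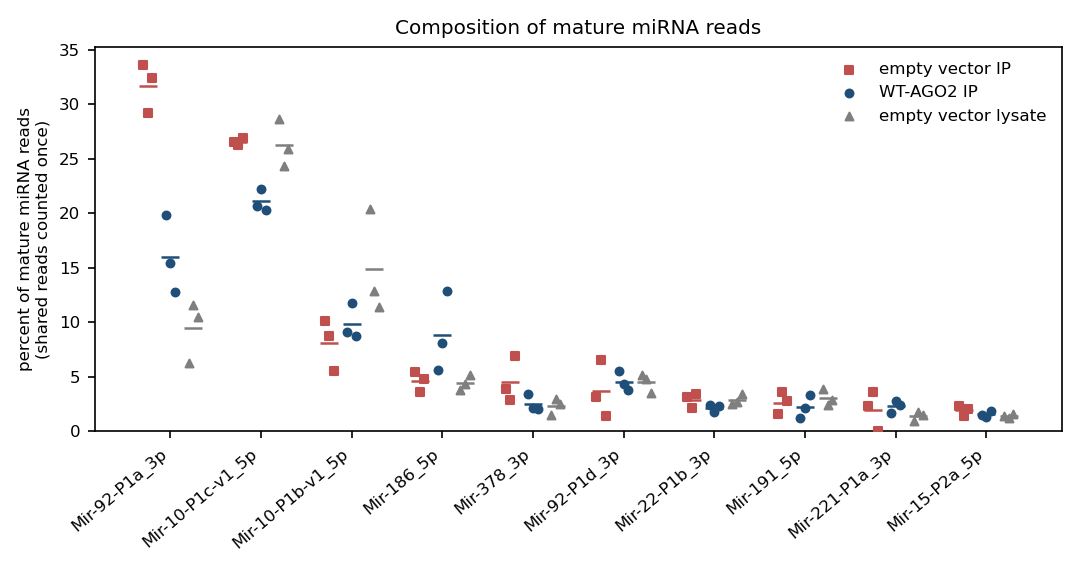
Percent of mature miRNA reads, near-identical sets counted once, for the 10 leading sequences of the empty vector IP in the 3 libraries each of the empty vector IP (squares), WT-AGO2 IP (circles) and empty vector lysate (triangles); lines are means. Mir-92-P1a_3p is at 29.2% to 33.6% in the empty vector IP and at most 19.8% in the other libraries.

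Mir-10-P1c-v1_5p took 19.5% ± 1.12 in the empty vector IP against 17.5% ± 0.960 in the WT-AGO2 IP (SD, n = 3 each), with overlap. With near-identical sets counted once it took 26.6%, 26.3% and 26.9% against 20.7%, 22.3% and 20.3%, and every empty vector library was above every WT-AGO2 library. Mir-10-P1b-v1_5p took 5.97% ± 1.75 against 8.19% ± 1.38 (SD, n = 3 each), and Mir-186_5p 3.38% ± 0.471 against 7.41% ± 3.27 (SD, n = 3 each). For both, all 3 empty vector libraries were below all 3 WT-AGO2 libraries. With near-identical sets counted once this held for Mir-186_5p and not for Mir-10-P1b-v1_5p, at 10.2%, 8.76% and 5.52% against 9.13%, 11.8% and 8.76%. Mir-378_3p took 3.32% ± 1.43 against 2.1% ± 0.591 (SD, n = 3 each), with overlap.

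limma on log2(percent + 0.5) called 5 of 31 tested miRNAs lower in share in the empty vector IP, 16.1% of those tested, and 0 higher. Of the 31, 15 passed the filter on low shares in both groups, and 0 of these were called by limma, with 3 at an unadjusted p under 0.05. A further 11 passed through the WT-AGO2 group alone, and all 5 calls were among them. These 5 were at 0 in the 3 empty vector libraries, so the filter fixed their direction and their error comes from the WT-AGO2 libraries. Their log2 fold changes, given as a description, were Mir-92-P2d_3p at -1.91, Mir-192-P2_5p at -1.83, Mir-577_5p at -1.33, the passenger strand Mir-221-P1a_5p* at -1.19 and Mir-769_5p at -1.07. By calculation from the WT-AGO2 composition with single reads unlisted, 6.08 to 7.81 reads of Mir-92-P2d_3p and 5.89 to 7.12 of Mir-192-P2_5p were expected over the 3 empty vector libraries, compared with 0. For Mir-577_5p the expectation was 1.59 to 5.46 reads and for Mir-769_5p 1.04 to 3.51, so their 0 says less. Mir-577_5p, Mir-769_5p and Mir-221-P1a_5p* were not called with a pseudocount of 1 percentage point.

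Mir-92-P1a_3p was higher in share by limma with an adjusted p of 0.0047 but a log2 fold change of 0.81 ± 0.14 (SE), under the threshold of 1, and it was at 0.98 with near-identical sets counted once. The let-7a paralogues, at 0.95 on 4 reads, were among the 5 miRNAs that passed the filter through the empty vector group alone, where 1 read is about 0.5% of the mature reads. Their direction is not independent of the filter, and no test is given for them. Mir-10-P1c-v1_5p was at 0.15 ± 0.09 (SE, adjusted p = 0.245). By ranks, 5 of 31 (16.1%) were above all WT-AGO2 libraries in all 3 empty vector libraries, and 9 of 31 (29%) were below. Of the 15 that passed the filter in both groups, 2 were above, the miR-92a paralogues, and 2 below, Mir-186_5p and Mir-10-P1b-v1_5p. With near-identical sets counted once, 10 of 31 were called, 1 higher and 9 lower, and Mir-92-P1a_3p was not the higher one. These calls were not split by the group that passed the filter, so their direction may not be independent of it. They are given as counts only.

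**Figure D4:**
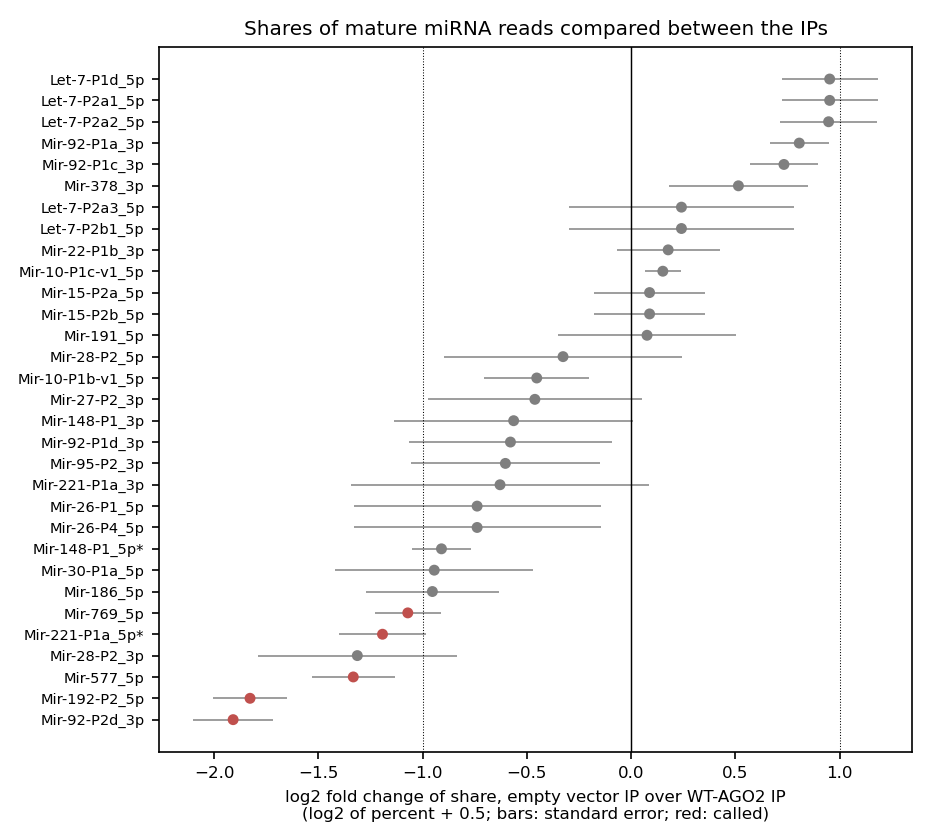
Log2 fold change of the share of mature miRNA reads, empty vector IP over WT-AGO2 IP, for the 31 miRNAs tested by limma on log2(percent + 0.5); bars are standard errors and dotted lines the threshold of 1 in either direction. The 5 called (red) are all lower, from -1.91 to -1.07, and miR-92a and let-7a paralogues stand highest, at 0.73 to 0.95.

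The lysate of the empty vector cells gives the composition before the beads. Mir-92-P1a_3p and Mir-92-P1c_3p were the 2 of 34 tested miRNAs (5.88%) called higher in share in the empty vector IP than in this lysate, with log2 fold changes of 1.48 ± 0.21 (SE, limma adjusted p = 0.0023) and 1.44 ± 0.22 (SE, limma adjusted p = 0.0027). Their shares were 23.2% ± 0.197 and 21.9% ± 2.51 in the IP against 8.20% ± 2.24 and 7.89% ± 2.12 in the lysate (SD, n = 3 each). From the lysate composition with single reads unlisted, 31.7 to 55.4 reads of Mir-92-P1a_3p were expected by calculation, compared with 130. A further 5 miRNAs, 14.7% of those tested, were lower: Mir-192-P2_5p at -1.70, Mir-92-P2d_3p at -1.65, Mir-10-P2b_5p at -1.30, Mir-30-P2a_5p at -1.19 and Mir-10-P1b-v1_5p at -1.06. The first 4 were at 0 in the empty vector IP and passed the filter through the lysate alone, which fixed their direction, and Mir-10-P1b-v1_5p took 13.1% ± 4.68 (SD, n = 3) of the lysate reads. Its call held with empty vector replicate 2 left out and was lost without any other of these 6 libraries, and that of Mir-10-P2b_5p was lost without empty vector replicate 1. By ranks, all 3 IP libraries were below the lysate for 11 of 34 (32.4%). Mir-186_5p was at 3.38% ± 0.471 in the IP and 3.89% ± 0.544 in the lysate (SD, n = 3 each), with overlap.

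The overlap of 2 libraries, the summed smaller share of each sequence with near-identical sets counted once, ran from 80.2% to 84.3% among the empty vector IP libraries and from 83.4% to 87.0% among the WT-AGO2 IP libraries. Between empty vector and WT-AGO2 IP it was 62.7% to 73.0% (median 67.9%), and between the empty vector IP and its lysate 60.5% to 70.2% (median 67.0%). The few mature reads of the empty vector libraries and their unlisted single reads lower these overlaps by an amount that was not tested.

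Set against their own lysates, many miRNAs were enriched more in the WT-AGO2 IP, while the let-7a paralogues were enriched about equally in both. The mean RPM of Mir-92-P1a_3p was 6.81 times the lysate mean in the empty vector IP and 33.4 times in the WT-AGO2 IP. For Mir-10-P1c-v1_5p these ratios were 2.0 and 14.4, for Mir-10-P1b-v1_5p 1.09 and 13.3, and for Mir-186_5p 2.19 and 24.0. For Let-7-P2a1_5p they were 4.23 and 4.16, and its interaction change was -0.17 ± 0.60 (SE, limma adjusted p = 0.793). limma with an interaction of fraction and vector called 61 of 126 tested miRNAs (48.4%) lower in enrichment with the empty vector, and 0 higher. Calls at 0 in the empty vector IP, such as Mir-130-P3b_5p*, could hardly go the other way. With 50 RPM added, lysate values far under it hardly enter. Mir-130-P3b_5p* had 0 reads in both lysates and was at -2.08 here and in the RPM test. Among the called miRNAs with reads in the empty vector IP, the changes were -3.48 ± 0.74 for Mir-186_5p (SE, adjusted p = 0.0033) and -2.77 ± 0.89 for Mir-10-P1c-v1_5p (SE, adjusted p = 0.0156). Mir-92-P1a_3p was at -2.02 ± 0.95 and was not called (SE, adjusted p = 0.0682). A block for each replicate number within each vector pairs each IP with its lysate. With it, Mir-92-P1a_3p was called (-2.02 ± 0.76, SE, limma adjusted p = 0.0145), as were Mir-92-P1c_3p and Mir-378_3p.

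By family, Mir-92 took 48.9%, 47.1% and 47.5% of the mature reads of the empty vector IP and 37.7%, 30.6% and 26.0% in the WT-AGO2 IP, with no overlap. These shares add the values listed for both miR-92a paralogues. With near-identical sets counted once, Mir-92 took 35.4% ± 1.49 against 22.3% ± 4.69 (SD, n = 3 each), again with no overlap. Its 6 members did not move together, since Mir-92-P2d_3p was at 0 and Mir-92-P1d_3p overlapped between the groups at 2.78% ± 2.16 against 3.75% ± 0.640 (SD, n = 3 each). limma on family shares gave 0.61 ± 0.14 (SE, adjusted p = 0.0359) for Mir-92, under the threshold of 1. It was the 1 of 14 families (7.14%) above all WT-AGO2 libraries, and 3 of 14 (21.4%) were below. Of 14 families tested, 2 (14.3%) were called lower and 0 higher. These were Mir-192, at 0 against 1.33% ± 0.0819 (SD, n = 3), and Mir-30, with 2 reads in the empty vector IP against 825, at -1.96 ± 0.50 (SE, adjusted p = 0.0431). Both families passed the filter through the WT-AGO2 group alone, so their direction is not independent of it. The Mir-30 call was lost with near-identical sets counted once and when any library other than empty vector replicate 3 was left out.

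Mir-10 took 25.5%, 27.6% and 23.3% of the mature reads of the empty vector IP against 24.6%, 28.7% and 25.6%, and the groups overlapped. Let-7, with 22 reads over 10 listed members, of which 9 remained with near-identical sets counted once, took 3.87% ± 1.92 against 1.75% ± 0.455 (SD, n = 3 each), or 2.20% ± 1.29 against 1.24% ± 0.289 with those sets counted once. Mir-15, with 16 reads, took 2.84% ± 0.493 against 2.77% ± 0.544 (SD, n = 3 each). Mir-17, a family of cell cycle regulators with genes in the same MIR17HG transcript as miR-92a, had 2 reads over 8 listed members, where 4.92 were expected at its WT-AGO2 share. Mir-103, Mir-181, Mir-320, Mir-423, Mir-19 and Mir-21 were at 0 in all 3 empty vector libraries, with at most 4.60 reads expected for any of them. The expectations for Mir-17 and these families assume that single reads are listed. With single reads unlisted they would be lower, by an amount that was not calculated.

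Passenger strands were listed in the WT-AGO2 IP and not with the empty vector. Of 25 passenger strands in the table, 21 had reads in at least 1 WT-AGO2 library, 16 in all 3, and 0 in any empty vector library. They made up 2.60%, 2.26% and 2.98% of the mature reads of the WT-AGO2 IP, and 0 of 560 in the empty vector IP (exact permutation test on the library shares, two-sided, p = 0.1). If single reads were listed, the 0 would allow a share of up to 0.536%, or 0.732% with near-identical sets counted once. Single reads were mostly not listed, so the share could be higher than either value. At the WT-AGO2 share 14.6 passenger reads were expected in the empty vector libraries, or 4.59 to 7.90 with single reads unlisted. The lysate libraries held 0.364%, 1.01% and 1.42%. At the lysate share 5.21 passenger reads were expected, or 0.274 to 2.28 with single reads unlisted, so the 0 was not distinguishable from the lysate at this depth. Reads of 5p arms took 43.5%, 40.2% and 39.1% of the mature reads of the empty vector IP and 46.7%, 55.1% and 58.2% in the WT-AGO2 IP (exact permutation test, two-sided, p = 0.1). The 3p miR-92a values of both paralogues enter these 5p shares. If shared reads were listed in full under each, they count more than once and lower the 5p shares. The share of miR-92a reads was itself larger in the empty vector IP. The 5p shares are not given with near-identical sets counted once.

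Of 12 miRNA families that mark other cells or serum, such as Mir-451 of erythrocytes and Mir-122 of liver, 1 was listed in the table. This was Mir-375, a miRNA of pancreatic islets, with 0 reads in the empty vector IP, 44 in the WT-AGO2 IP and 8 and 6 in the lysates of the empty vector and WT-AGO2. The WT-AGO2 replicates held 41, 0 and 3 of these reads. At the WT-AGO2 share 0.340 reads were expected in the empty vector IP, so its 0 says nothing about Mir-375.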

How the data were processed

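The deposited RPM values were made by the authors in sRNAbench against MirGeneDB and are relative to the total reads of each library. Per the labels the genome build was GRCh38. The terms minExpr and RCadj in the name of the deposited table are not explained in the sources used here, and a minimum or an adjustment of shared reads may have removed or split low values. Reads were inferred by dividing each RPM by that of 1 read. The table has too few low values per library to establish unadjusted counts, and count models were left out.

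The main tests used limma 3.58.1 in R 4.3.3 (eBayes with trend and Benjamini-Hochberg adjustment) on log2(RPM + 50), for miRNAs of at least 1 RPM in at least 2 libraries of a group. Shares were tested on log2(percent + 0.5) for miRNAs of at least 0.5% and families of at least 1% in at least 2 libraries of a group. Calls needed an adjusted p under 0.05 and a log2 fold change beyond 1 in either direction. Exact two-sided permutation tests (scipy 1.17.1) compared the library measures. Reads expected at the WT-AGO2 or lysate share are the mean share times the mature reads of the empty vector libraries. Expectations at reduced depth or with single reads unlisted are hypergeometric. Near-identical miRNAs had totals within 5% of each other and, in each library, values within 20% or 2 reads, and this grouping was chosen after seeing the data. The code of the fit was run on simulated data, with recovery required only at a depth far above that of these libraries. The simulation held no spread in total miRNA share between libraries, so it does not bear on the calls here.

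Named are the leading miRNAs of each IP, those in all 3 empty vector libraries, the 10 most abundant at 0 there, those with the largest called changes in share or interaction and the 8 leading families. Mir-101, Mir-1307 and members of other families were named after their values were seen. The miRNAs and lists were chosen with earlier results of these data known. Deviations from the group means of libraries with the same number correlated at 0.123, -0.121 and -0.139 between the IPs of the empty vector and WT-AGO2, so the numbers were not used as pairs. The IP and lysate of a number come from the same cells, and correlated at -0.0463, -0.213 and 0.00850 for the empty vector and 0.488, -0.160 and 0.564 for WT-AGO2. Alternatives were other pseudocounts, filters and scalings, the replicate number as a block and each library left out in turn. In the interaction the block was the replicate number within each vector.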

Additional observations from a re-analysis of the deposited data

Results flagged for a closer look

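The enrichment of miRNAs in IP over lysate differed between the empty vector and WT-AGO2 by a limma interaction test for 61 of 126 miRNAs. The largest of these differences were -3.87 (log2) for Mir-192-P2_5p, -3.71 for Mir-92-P2d_3p, -3.49 for Mir-28-P2_3p, -3.48 for Mir-186_5p and -3.43 for Mir-92-P1d_3p, all lower with the empty vector. Mir-192-P2_5p and Mir-92-P2d_3p were at 0 in the empty vector IP, so they could hardly go the other way. Their size depends on the pseudocount.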

How the results depend on the processing

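In RPM, 69 calls became 96, 101 and 50 with pseudocounts of 1, 10 and 100, 52 without a filter, 32 of 40 tested with a filter on the lysate level, and 37 to 82 with 1 library left out (37 without empty vector replicate 2, 40 without replicate 1 or 3, 82 without WT-AGO2 replicate 3). In share, 5 calls became 9 with a pseudocount of 0.1 (3 higher), 2 with 1 and 3 with the lysate filter. They became 10 with near-identical sets counted once and 9 with median-of-ratios scaling. With 1 library left out they ran from 3 (without WT-AGO2 replicate 2) to 11 (without empty vector replicate 3). These counts do not set apart miRNAs that passed the filter through 1 group alone. The direction of such miRNAs, like the let-7a paralogues, is not independent of the filter. Unless sets were counted once, paralogues that share reads count as separate calls. The calls in RPM of Mir-15-P2a_5p and Mir-22-P1b_3p were lost with a pseudocount of 1 and without empty vector replicate 2. Against the lysate, 7 calls became 4 with a pseudocount of 1 and 4 to 10 with 1 library left out. The 61 interaction calls became 91 and 43 with pseudocounts of 10 and 100, and 51 to 81 with 1 library left out. The 2 family calls became 1 with a pseudocount of 0.1, with identical or near-identical sets counted once, and 1 to 2 with 1 library left out. Where fewer libraries or miRNAs entered, that is part of the setting, and otherwise the cause was not tested. With the replicate block, the calls were 67 in RPM, 5 in share, 7 against the lysate, 68 in the interaction and 1 among families, where Mir-30 lost its call. Mir-92-P1a_3p, Mir-92-P1c_3p and Mir-378_3p gained a call in the interaction, and the block changed no other call named in the text. Differences of library measures ranged, with 1 library left out, from -7.92 to -3.54 points for the miRNA share, -99.7 to -91.2 for miRNAs listed, -2.79 to -2.43 points for passenger strands and -15.7 to -9.98 points for 5p reads. In the 5p range, the values of both miR-92a paralogues are included.

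Uncalled changes that turned were, in share between the IPs with median-of-ratios scaling, Mir-10-P1c-v1_5p (-0.21), Mir-15-P2a_5p (-0.18), Mir-191_5p (-0.21) and Mir-22-P1b_3p (-0.12). With 1 library left out, Mir-191_5p ran from -0.22 to 0.37 and Mir-221-P1a_3p from -1.20 to 0.18, and against the lysate from -0.73 to 0.65. Against the lysate with near-identical sets counted once, Mir-10-P1c-v1_5p came to 0.0165, Mir-186_5p to 0.0463 and Mir-22-P1b_3p to 0.0038. Among families, Mir-10 came to 0.13 with near-identical sets counted once and -0.10 to 0.0193 with 1 library left out, Mir-15 to -0.0316 with identical sets counted once and -0.0582 to 0.16 with 1 library left out, and Mir-221 ran from -1.66 to 0.0107. Count models were not run, since unadjusted counts could not be established. The empty vector libraries, with 174 to 202 mature reads, limit what can be called absent.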
